A study of Homo sapiens with 4 samples.

Results

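Transcripts of 10 genes that act upstream in the Hippo pathway were followed across the arrays: the angiomotins AMOT, AMOTL1 and AMOTL2, the Ajuba family proteins AJUBA, LIMD1 and WTIP, and the adaptors PTPN14, NF2, WWC1 and SAV1. They were chosen by name, as every probe set to which the array annotation gives exactly 1 symbol among these genes, and this gave 41 of 54675 probe sets and 10 of 19775 genes. The choice was made with the LPA differences of AMOTL2, PTPN14 and AJUBA already known, so the LPA contrast is described for the members and not tested. The RNA came from HEK293 cells, an established line from human embryonic kidney. Per the labels' protocols, cells grown in medium with 10% FBS were kept overnight in medium without serum. The 2 LPA arrays are from cells stimulated for 2 h with lysophosphatidic acid (LPA) at 1 µM, a lipid of serum that signals through receptors coupled to G proteins, and the 2 untreated arrays, with the letters Vc in their titles, have the treatment "none". The labels give replicate numbers 1 and 2 in each group but do not say that these were separate cultures, so all errors measure only the spread between arrays, which may be technical.

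The Hippo pathway is a kinase cascade that restrains the coactivators YAP and TAZ, which otherwise enter the nucleus and act with TEAD transcription factors. Angiomotins bind YAP and TAZ at cell junctions and on actin filaments, Ajuba family proteins bind the LATS kinases, and merlin (the product of NF2), KIBRA (WWC1) and salvador (SAV1) help to activate the kinases. LPA is known to activate YAP, and AMOTL2, AJUBA and PTPN14 are counted among the genes that YAP and TEAD induce.

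The 4 arrays had nearly the same median intensity, 70.3 to 76.1. LPA replicate 2 stood apart, with a maximum of 62508 against 93776 to 104012 on the others and an ACTB 3′-to-5′ ratio, which depends on RNA integrity and labelling, of 18.8 against 12.6 to 13.6. The same ratio for GAPDH moved with the group, at 1.35 and 1.38 on the LPA arrays against 1.25 and 1.22 on the untreated ones, and its part in the differences given here was not tested. Of the markers fixed for the line, 6 of 6 lay above the filter used here, a signal of 70.5 in the mean over the arrays, with summed intensities of 35078 and 39615 on the untreated arrays, against 33570 and 29769 on the LPA arrays. The lower sums after LPA followed VIM, the brightest of them (26882 and 30202 untreated, 24351 and 19898 after LPA), while NEFL read higher after LPA in both numbers (2079 and 2527 against 2490 and 3337). Of 11 listed markers of endothelium, blood, fibroblasts and kidney tubule, 10 were measured and 3 lay above it (PECAM1, COL1A1 and LRP2), with sums over the list of 1653 and 1749 untreated and 1533 and 1540.4 after LPA. Most of each sum was COL1A1 (991 and 1103 untreated, 847 and 1069 after LPA). COL1A1 thus read above KRT8 of the line's own markers (209 and 229 untreated, 276 and 226 after LPA). PECAM1 lay around the filter (69.0 and 130 untreated, 111 and 48.3 after LPA).

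Because AMOTL2, AJUBA and PTPN14 are known TEAD targets, the promoters of the members were searched for the core letters that TEAD factors recognise, GGAATG on either strand. RefSeq promoters (GRCh38.p14, 250 bases before to 50 after a start) were at hand for 9 of the genes, LIMD1 not among them, with 12 starts in all. The letters occurred in 4 of these 12 promoters and in 14.0% of 35116 promoters of the same length. The 4 include promoters of AMOTL2, AJUBA and PTPN14, the known targets that prompted the search. The count is therefore not independent of how the genes were chosen. The matches before a start are shown here in windows of 30 bases on the gene's strand, with the core in capitals.
AMOTL2, chr3:134374499-134374528, minus strand, 69 bases before a start: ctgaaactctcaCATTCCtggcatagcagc
AJUBA, chr14:22976884-22976913, minus strand, 59 bases before a start: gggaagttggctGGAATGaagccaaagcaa
PTPN14, chr1:214551785-214551814, minus strand, 200 bases before the start: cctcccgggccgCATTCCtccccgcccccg
WTIP, chr19:34481629-34481658, plus strand, 117 bases before the start: ccactccccccaCATTCCagaggccgcagc
WTIP, chr19:34481663-34481692, plus strand, 83 bases before the start: tctccttcctcgCATTCCtgcccccgcaaa
The AJUBA match reads in the opposite orientation to the others, and for AMOTL2 and AJUBA it lies before 1 of their annotated starts and not the other. The AP-1 letters TGANTCA, the CArG box bound by SRF and the EGR letters GCGTGGGCG, searched on both strands, occurred in 0 of the 12 promoters, against 7.71%, 1.29% and 0.795% of all promoters. A match is a description of the letters, and no occupancy was measured.

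LPA and untreated arrays were compared to ask which of these transcripts differ after stimulation. At its brightest probe set, the one with the highest mean over the arrays, each of the 10 genes passed the filter, and 9 of 10 had a positive mean difference, as did 51.9% of all 11865 genes tested. AMOTL2, PTPN14, AJUBA and LIMD1 read higher on both LPA arrays than on both untreated ones, 4 of 10 genes where 14.4% of all genes did so, and 0 of 10 read lower on both, against 12.5%. These counts describe genes that were picked with this contrast in view. The median log2 difference of the 10 genes was 0.17 and that of all genes 0.0092. In limma's moderated test over all genes, 0 (0%) passed an adjusted p of 0.05 and 207 (1.74%) had an unadjusted p under 0.05. With 2 arrays against 2, an exact permutation test of a single gene cannot go below p = 0.333. In bulk RNA a change per cell and a change in the cells present cannot be told apart.

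**Figure D1:**
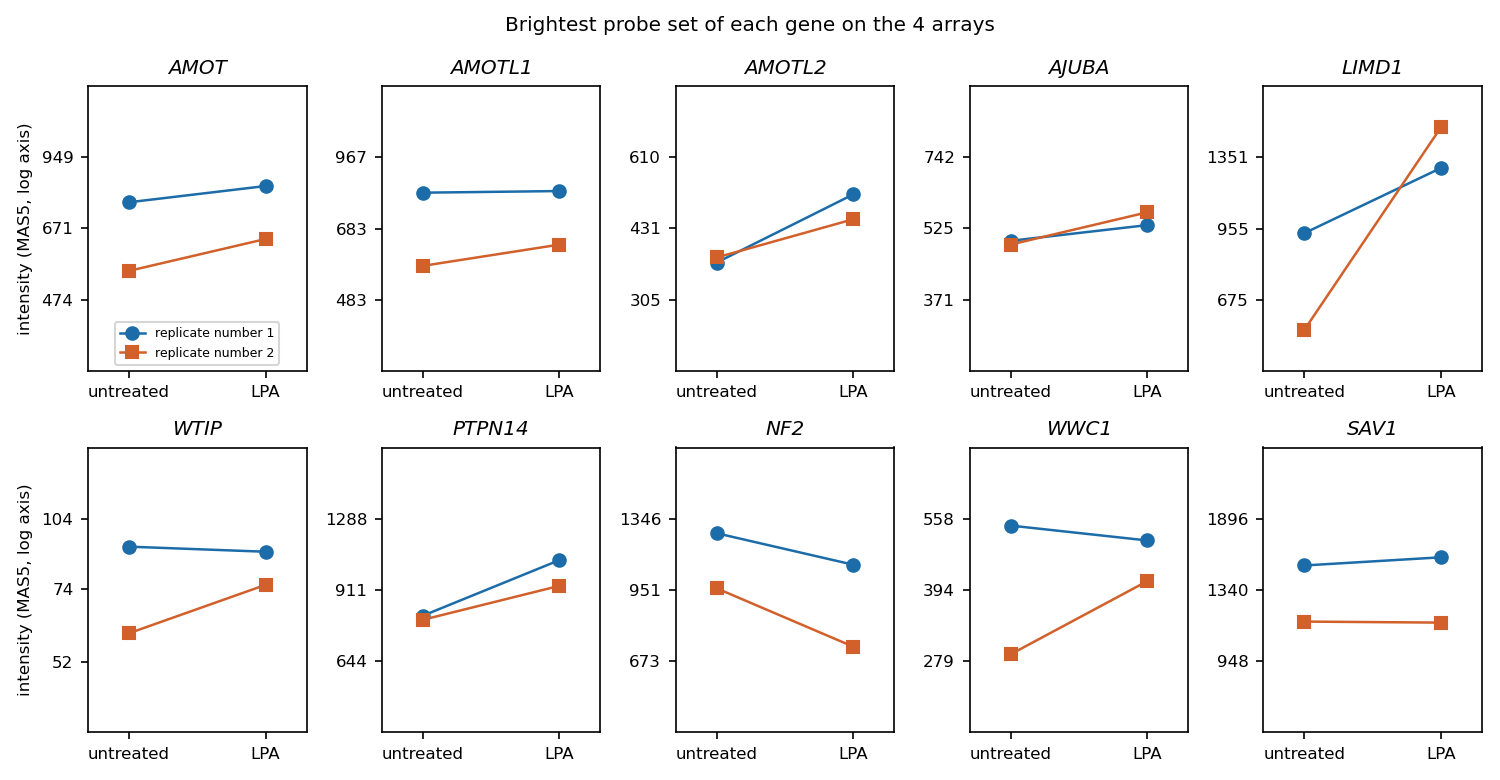
MAS5 intensity of the brightest probe set of each of the 10 genes on the 4 arrays, on log axes that each span the same fold range; lines join arrays of the same replicate number, and each point is 1 array. AMOTL2, PTPN14, AJUBA and LIMD1 read higher on both LPA arrays than on both untreated arrays, while AMOT, AMOTL1, WTIP, NF2, WWC1 and SAV1 read lower on both arrays of number 2.

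Among the angiomotins, scaffold proteins of junctions and actin that hold YAP and TAZ outside the nucleus, AMOTL2 had the largest positive difference at a brightest probe set. Its single probe set read 365 and 374 on the untreated arrays and 509 and 451 on the LPA arrays. The untreated values lay close together and both LPA values above them. The log2 difference was 0.37 ± 0.25 (limma's moderated SE, 2 arrays per group), a fold of 1.29, with 0.48 in replicate number 1 and 0.27 in number 2. The difference between the untreated arrays was 0.035 and that between the LPA arrays -0.17, so the groups were farther apart than their members.

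AMOT, the founding member, read 762 and 546 untreated and 825 and 637 after LPA. Each LPA array was above the untreated array of its number (0.11 and 0.22), but the untreated arrays differed by -0.48 between themselves, more than the group difference of 0.17 ± 0.26. Without untreated replicate 2 that difference became -0.072, and without LPA replicate 1 it became -0.017.

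AMOTL1 read 813 and 570 untreated and 820 and 632 after LPA at its brightest probe set, a difference of 0.080 ± 0.26. Here too the arrays of number 2 were the lower ones in both groups. The other AMOTL1 probe sets above the filter had means of opposite sign: 225459_at read 195 and 147 against 53.5 and 111 (-1.13 ± 0.46), lower on both LPA arrays, and 228840_at read 177 and 18.9 against 142 and 79.1 (0.84 ± 0.89). The positive mean of 228840_at rested on the low value of untreated replicate 2: it was -0.74 without that array and 2.43 without untreated replicate 1. With the mean of all 4 AMOTL1 probe sets the difference was -0.39, so its sign depends on the probe set. It also turned negative without untreated replicate 2 (-0.18) and without LPA replicate 1 (-0.11).

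The Ajuba family are LIM domain proteins that shuttle between junctions and the nucleus and inhibit LATS kinases. AJUBA had a small difference at its brightest probe set, 225806_at, which read 494 and 485 untreated and 533 and 567 after LPA. Both LPA values were higher, the log2 difference was 0.17 ± 0.23, and the numbers gave 0.11 and 0.23. The 2 other AJUBA probe sets above the filter also did not overlap between groups. Of these, 1553764_a_at read 131 and 231 against 293 and 239 (0.60 ± 0.36), and 225807_at, close to the filter, read 55.4 and 62.3 against 123 and 70.8 (0.66 ± 0.49). In both, most of the difference came from number 1, at 1.15 and 1.13, against 0.045 and 0.18 in number 2. AJUBA was therefore higher on both LPA arrays at each of its 3 probe sets above the filter, by amounts that differed between arrays. However, 225807_at lay below the filter signal on both untreated arrays and passed only through the LPA arrays. It therefore adds no support to the other sets. The remaining set read 47.9 or less on every array and is not interpreted.

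LIMD1, the relative of AJUBA that also binds LATS, had the largest difference of the 10 genes. Its brightest probe set, 222762_x_at, read 934 and 584 untreated and 1282 and 1563 after LPA. The LPA values were above the untreated ones, with the lowest and the highest value both in number 2. The log2 difference was 0.94 ± 0.26, a fold of 1.92, with 0.46 in number 1 and 1.42 in number 2. A second probe set, 234687_x_at, read 121 and 70.4 against 155 and 142 (0.68 ± 0.42), again with the larger part in number 2. Both names end in _x_at, the maker's mark for sets with probes that can also match other sequences. The remaining 3 LIMD1 sets lay below the filter: 218850_s_at, which is listed with the RefSeq transcript of the gene, read 61.1 and 68.5 against 42.0 and 77.5, and its groups overlapped.

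Without sets ending in _x_at, a choice made after seeing these values, LIMD1 fell below the filter with a difference of -0.18. Leaving out untreated replicate 2 gave 0.60 for LIMD1, and leaving out untreated replicate 1 gave 1.28. The difference was 0.80 without LPA replicate 2, the array with the low maximum, and 1.08 without LPA replicate 1. The part of cross-hybridisation was not tested.

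WTIP, the third family member, had 1 probe set, which read 91.0 and 59.7 untreated and 88.8 and 75.6 after LPA. It lay just above the filter, with 1 array below it, and the groups overlapped (0.15 ± 0.47). The numbers gave -0.035 and 0.33, and the mean difference was -0.15 without untreated replicate 2.

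PTPN14, a phosphatase that binds YAP and activates the LATS branch, read 803 and 788 untreated and 1053 and 929 after LPA at 226282_at. As with AMOTL2, the untreated arrays agreed closely (-0.029 between them) and both LPA arrays were above them. The log2 difference was 0.31 ± 0.20, a fold of 1.24, with 0.39 in number 1 and 0.24 in number 2. The next PTPN14 set, 244533_at, read 272 and 171 against 299 and 248 (0.34 ± 0.34). The third, 242321_at, read 91.5 and 57.1 against 89.6 and 175 (0.78 ± 0.49). Both had positive means but overlapped between groups, and the set below the filter read 55.3 and 79.6 against 10.1 and 67.0. Averaged with that dim set, the gene's difference was 0.035.

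NF2, which encodes merlin, a membrane-linked tumour suppressor that recruits LATS, was the only one of the 10 genes with a negative mean at its brightest probe set. It read 1254 and 959 untreated and 1076 and 722 after LPA. Each LPA array was below the untreated array of its number (-0.22 and -0.41), but the groups overlapped, and the log2 difference was -0.31 ± 0.25. It was -0.028 without LPA replicate 2 and -0.60 without LPA replicate 1. Of its other sets above the filter, 204991_s_at read 154 and 85.7 against 168 and 165, higher on both LPA arrays (0.53 ± 0.41). The other 2 overlapped, at -0.34 and 0.0057. The 4 NF2 sets above the filter thus gave 2 positive and 2 negative means, and 4 more sets lay below it.

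WWC1, whose product KIBRA links merlin to the kinases, read 540 and 288 untreated and 502 and 412 after LPA. The difference was 0.20 ± 0.34, with -0.10 in number 1 and 0.51 in number 2, opposite signs. The untreated arrays differed by -0.90, and the mean turned to -0.25 without untreated replicate 2. The 3 other sets above the filter had means of 0.20 to 0.30 with overlap between groups. In 216074_x_at the arrays of number 1 read 374 and 226 and those of number 2 only 35.7 and 91.5.

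SAV1, the adaptor that joins the Hippo kinases to their substrates, was nearly level between groups at its brightest set, with 1510.1 and 1149 untreated and 1571 and 1144 after LPA (0.025 ± 0.23). Its next sets, 222573_s_at and 218276_s_at, gave -0.12 and -0.0036. The sets ending in _x_at gave other values: 238729_x_at read 231 and 107 against 343 and 220 (0.80 ± 0.43), and 240421_x_at went up in number 1 (1.24) and down in number 2 (-0.94). The 3 brightest SAV1 sets, none of which carries that suffix, had differences from -0.12 to 0.025.

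Over probe sets, 27 of the 41 lay above the filter and 14 below it. Of the 27, 22 had a positive mean (52.4% of all 21817 probe sets tested), 8 read higher on both LPA arrays (15.4% of all) and 1 lower on both (12.8%). Among the 8 is AJUBA 225807_at, which passed the filter only through the LPA arrays. Among the 22 is also AMOTL1 228840_at, whose mean log2 intensity over the untreated arrays lay below the filter. Neither set adds support to these counts. In limma's test over all probe sets, 0 (0%) passed and 2.05% had an unadjusted p under 0.05. Their median log2 difference was 0.20, and that of all probe sets tested 0.013. Without the 5 sets ending in _x_at the counts were 17 positive, 6 higher on both and 1 lower on both of 22, with a median of 0.18.

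**Figure D2:**
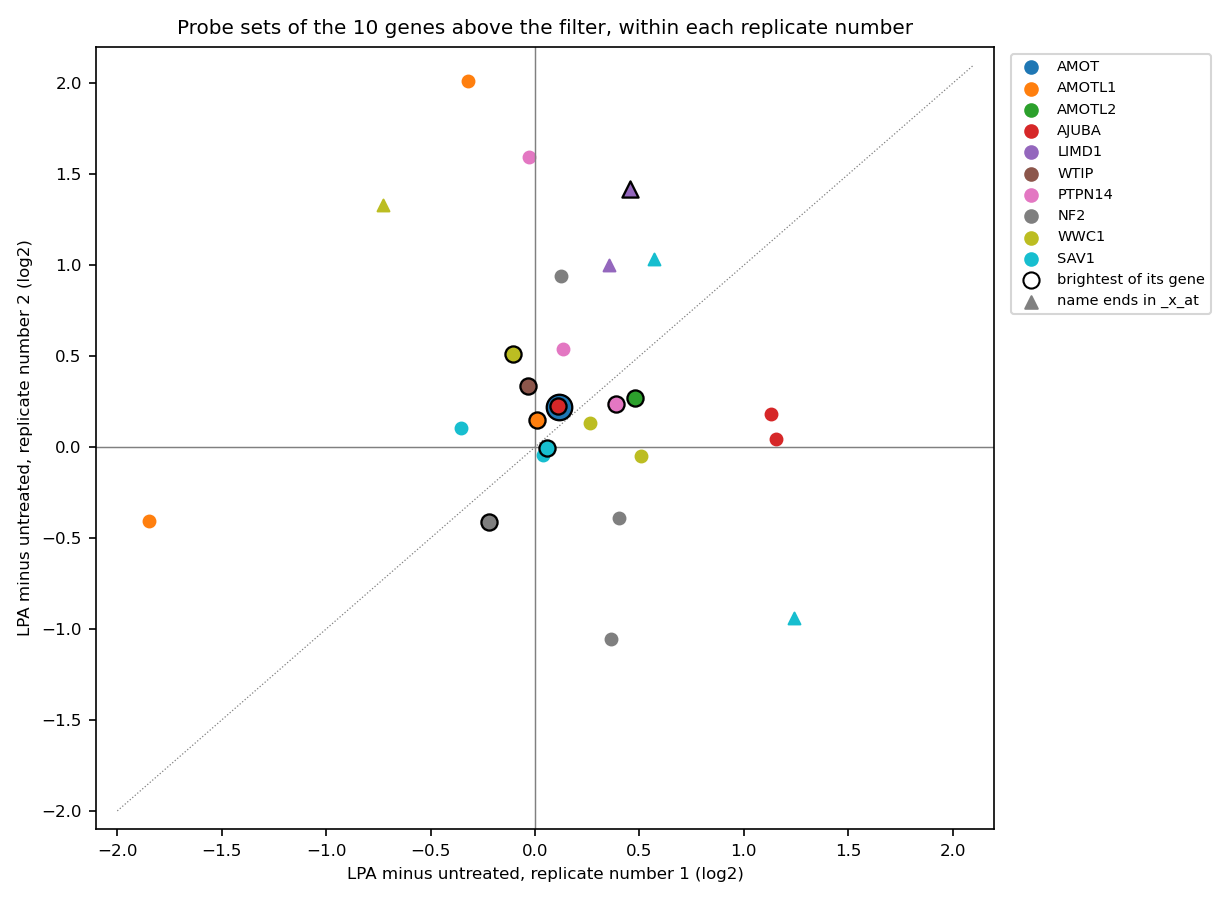
LPA minus untreated log2 difference in replicate number 1 (horizontal) and number 2 (vertical) for the 27 probe sets above the filter; each point is a probe set, coloured by gene, with outlined points for the brightest set of a gene (AMOT drawn larger, behind AJUBA) and triangles for names ending in _x_at. The brightest sets of AMOTL2 (0.48 and 0.27) and PTPN14 (0.39 and 0.24) sit together, LIMD1 is far higher in number 2 (1.42) than in number 1 (0.46), and the dimmer sets scatter to both sides.

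The arrays were then compared by replicate number, a contrast not used to choose the genes. Of the 10 genes, 6 (AMOT, AMOTL1, WTIP, NF2, WWC1 and SAV1) read lower on both arrays of number 2 than on both of number 1, as did 24.1% of all genes, and 0 read higher on both, against 26.5%. This count is not independent of the LPA contrast: a gene that reads higher on both LPA arrays cannot also separate by number, so AMOTL2, PTPN14, AJUBA and LIMD1 could only overlap here, and the count is a description. In a limma model with group and number, NF2 was lower in number 2 by -0.48 ± 0.15 on the log2 scale (limma adjusted p = 0.0303) and SAV1 by -0.43 ± 0.13 (adjusted p = 0.0287), in 2 of 2 groups each. These were 2 of 10 genes, where 1382 of all genes passed (11.6%), 687 of them higher (5.79%) and 695 lower (5.86%) in number 2. Neither passed under quantile normalization (limma adjusted p = 0.0601 and 0.0634), without the intensity trend, where 0 genes passed, with the mean of all probe sets, or without the group term, and NF2 missed with a stricter filter (0.0503). Each of the 5 SAV1 probe sets had a negative mean difference between numbers, from -0.12 to -0.87, while the 4 NF2 sets above the filter gave -0.48, -0.43, -0.45 and, for 217150_s_at, 0.92.

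WWC1 had the largest number difference of the 10 (-0.59 ± 0.23, limma adjusted p = 0.102), followed by NF2, then by AMOTL1 (-0.44 ± 0.17, 0.0956) and AMOT (-0.43 ± 0.17, 0.118). WWC1, AMOTL1 and AMOT did not pass. AMOTL2 (-0.069 ± 0.23), AJUBA (0.032 ± 0.20) and PTPN14 (-0.10 ± 0.15) differed least between numbers. A gene that reads higher on both LPA arrays must have a number difference smaller in size than its LPA difference. For these genes, picked on the LPA contrast, that bound was 0.37, 0.17 and 0.31. Their low rank was thus largely fixed in advance and is no separate result. The median number difference was -0.42 for the 10 genes and 0.014 for all genes. What the number marks is not stated. The model leaves 1 residual degree of freedom per gene, so its errors rest on spread borrowed across genes.

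**Figure D3:**
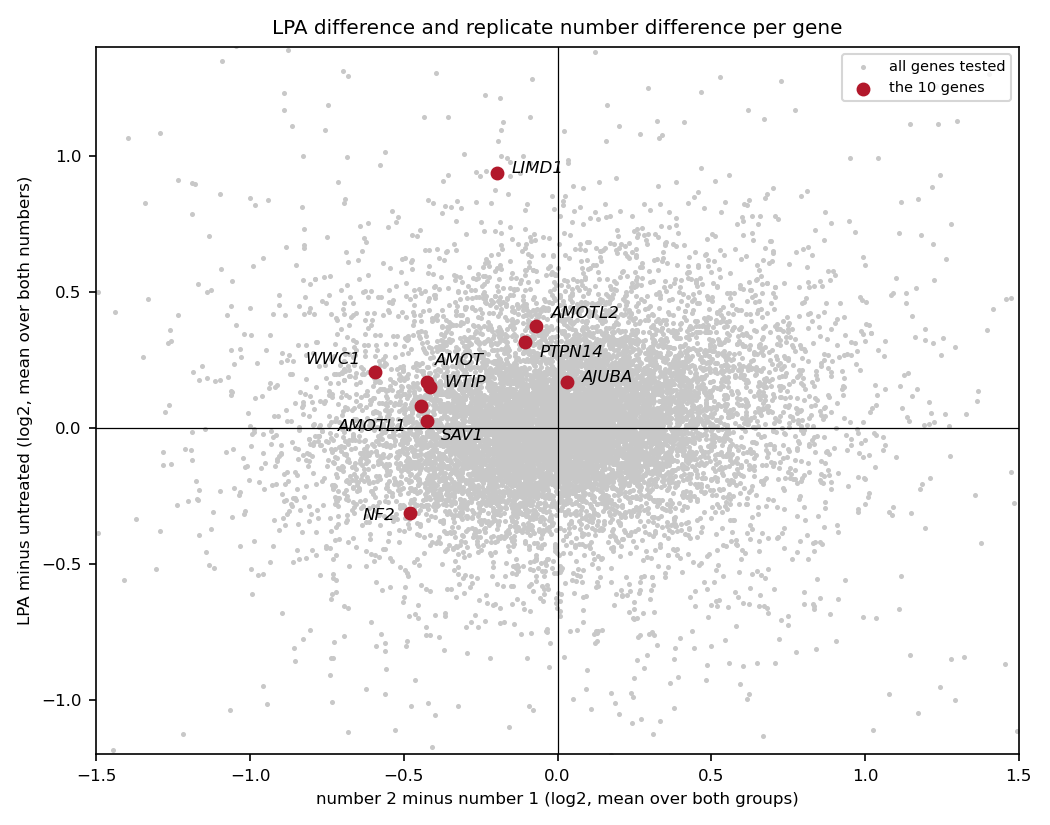
Mean log2 difference between LPA and untreated arrays (vertical) against the difference between replicate numbers (horizontal) for the 10 genes (red) and all 11865 genes tested (grey, with 81 outside the plotted range). AMOTL2, PTPN14, AJUBA and LIMD1 lie above 0 on the LPA axis and between -0.20 and 0.032 on the number axis, while the other 6 genes lie between -0.41 and -0.59 on the number axis. The axes are not independent here: a gene higher on both LPA arrays has a number difference smaller in size than its LPA difference.

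The lists of other pathway genes had smaller median differences than the 10 genes, which were picked with this contrast known. Of 13 Hippo kinases and effectors tested, 0 passed by limma, 9 had a positive mean, 2 read higher on both LPA arrays and 0 lower on both, with a median of 0.052. Of all genes tested, 51.9% had a positive mean, 14.4% read higher on both and 12.5% lower on both, which is the background for the counts of each list. VGLL4, a cofactor that competes with YAP for TEAD, read 536 and 584 untreated and 722 and 716 after LPA (0.36 ± 0.22). MOB1B (-0.21 ± 0.19) and TEAD2 (0.41 ± 0.38) overlapped between groups. The kinase LATS2, to which Ajuba family proteins bind, read 725 and 449 against 704 and 561 (0.14 ± 0.29). The coactivators themselves had negative means: YAP1 read 1891 and 1386 against 1609 and 1293 (-0.17 ± 0.21), and WWTR1, which encodes TAZ, 1923 and 1554 against 1622 and 1342 (-0.23 ± 0.19), both overlapping between groups. YAP1 was also lower in number 2, by -0.38 ± 0.12 (limma adjusted p = 0.0405). It was 1 of 3 genes among the 13 that passed between numbers, where 11.6% of all genes did. Without the intensity trend 0 genes passed in that comparison.

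Of 17 other upstream regulators tested, 0 passed, 12 had a positive mean, 2 read higher on both LPA arrays and 0 lower, with a median of 0.043. DCHS1, an atypical cadherin, read 77.8 and 87.4 untreated and 146 and 169 after LPA (0.92 ± 0.39), near the filter in untreated cells. STRN3, a subunit of a phosphatase complex that acts on the Hippo kinases, read 2301 and 2599 against 2909 and 3014 (0.28 ± 0.16). MARK2 (0.52 ± 0.43) and MINK1 (-0.27 ± 0.23) overlapped between groups. Of 13 partners of the angiomotins and enzymes of their turnover, 0 passed, 6 had a positive mean, 2 read higher on both LPA arrays and 0 lower, and the median was -0.0069. ITCH, a ubiquitin ligase that binds angiomotins, read 694 and 794 against 848 and 1016 (0.32 ± 0.21). The other gene higher on both LPA arrays was PLEKHG5, at 42.8 and 77.6 against 93.3 and 109 (0.79 ± 0.49). Its mean log2 intensity over the untreated arrays lay below the filter. PLEKHG5 thus passed only through the LPA arrays and adds no support to this count.

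Zyxin family proteins and partners of Ajuba gave 6 positive means among 10 tested, 2 higher and 1 lower on both LPA arrays, 0 passed and a median of 0.021. VHL, which acts with LIMD1 in oxygen sensing, read 649 and 420 against 661 and 863 (0.53 ± 0.28). AURKA read lower on both LPA arrays (-0.14 ± 0.15), while SNAI2 (0.18 ± 0.18) and VCL (-0.098 ± 0.15) overlapped. Among 8 relatives and partners of merlin, 4 read higher and 2 lower on both LPA arrays (14.4% and 12.5% of all genes), 0 passed and the median was 0.015. Ezrin (EZR), a close relative of merlin, read 2398 and 2322 against 2771 and 2726 (0.22 ± 0.15), and LZTR1 531 and 458 against 374 and 348 (-0.45 ± 0.25). For the other targets of YAP and TAZ, 5 of 12 tested had a positive mean, 2 read higher and 1 lower on both LPA arrays, 0 passed and the median was -0.063. CCN1, a secreted matrix protein, read 204 and 245 against 271 and 344 (0.45 ± 0.31). Its relative CCN2 lay near the filter, at 109 and 68.8 against 44.9 and 77.7 (-0.54 ± 0.52). The numbers gave -1.26 and 0.17 for CCN2, opposite signs. ASAP1, a regulator of ARF proteins, read 2249 and 1653 against 2720 and 2028 (0.28 ± 0.22). Its groups overlapped, and both arrays of number 2 were below both of number 1. By likeness of profile, the 3 tested genes nearest to AMOTL2 over the 4 arrays were STXBP3, DUSP28 and DHRS11, at Euclidean distances of 0.036, 0.040 and 0.041 in centred log2 intensity. STXBP3 read 2718 and 2725 untreated and 3834 and 3348 after LPA. Over only 4 arrays, close profiles are easily found among so many genes. The likeness is a description, and shared regulation was not tested.

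**Figure D4:**
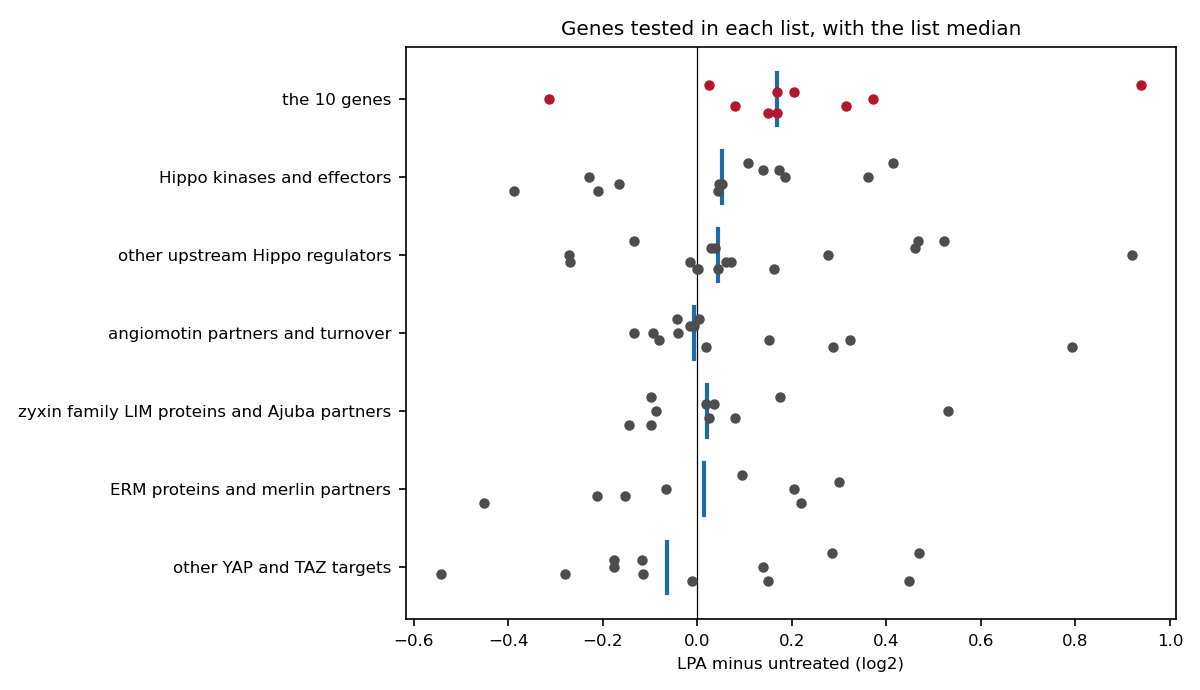
LPA minus untreated log2 difference of each gene tested (points) and the median (blue bars) for the 10 genes and for 6 lists of other pathway genes; LATS2 is in 2 of the lists. The medians run from -0.063 for other YAP and TAZ targets to 0.17 for the 10 genes, whose values span -0.31 to 0.94.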

How the data were processed

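Gene expression was measured on 4 Affymetrix arrays, 2 per group. The authors deposited linear intensity values, a single one for each probe set on an array, which MAS5 had produced according to the submitters' processing notes; its version, background settings and scaling target are not given in the sources. The mean after trimming 2% at each end was 500.1 on all arrays, so each had been scaled before deposit, which does not equalise the shape of the distributions. No detection calls were used. Only probe sets with 1 symbol in the platform annotation were named (41097, against 1801 with several and 11777 with none). Values were taken as log2(intensity + 1), which shrinks differences near the filter less than log2(intensity + 64) does. The difference of AMOTL1 225459_at was -1.13 with 1 and -0.71 with 64. Each gene was represented by its brightest probe set, and 11865 genes with a mean log2 intensity at or over the 40th percentile (a signal of 70.5) were kept. The probe set fit used the same signal as filter. Groups were compared with limma 3.58.1 in R 4.3.3 (lmFit, eBayes with intensity trend, two-sided, Benjamini-Hochberg over all features tested, threshold 0.05), tested on simulated data. Precision is limited by the number of arrays: the median SE was 0.244. The members, lists and tests were chosen with earlier results of these data known. Named genes were all members, up to 4 genes by smallest p from each of 6 lists (fewer are given), CCN1, CCN2, LATS2, YAP1 and WWTR1, and the 3 genes nearest to AMOTL2 in profile.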

Additional observations from a re-analysis of the deposited data

How the results depend on the processing

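No gene passed in the LPA comparison under quantile normalization, median centring, other pseudocounts, other filters, no intensity trend, the mean of all probe sets or, added after seeing the data, without sets ending in _x_at. The replicate number was a term in other fits: with the replicate block 32 of 11865 genes and 26 of 21817 probe sets passed, and with the block and quantile normalization 4 and 6. LIMD1 was among the 32 genes and its 222762_x_at among the 26 probe sets. No member passed with the block and quantile normalization, so the LIMD1 call depended on both the model and the scaling. The members were chosen with this contrast known, so that call is a description. Same-numbered arrays deviated together (r = 0.330 across genes), but with 2 pairs the number is not shown to pair them. Leaving out 1 array gave 0 to 3 genes and 0 to 3 probe sets. Between replicate numbers 0 genes passed without the intensity trend (1822 at an unadjusted limma p under 0.05), 168 with the mean of all probe sets and 445 without the group term, against 1382. AMOTL2, AJUBA and PTPN14 kept a positive difference under each of their alternatives (0.29 to 0.46, 0.12 to 0.24 and 0.035 to 0.40). Their brightest sets read higher on both LPA arrays, so leaving out 1 array could not change the sign. The block leaves the difference itself unchanged. These ranges therefore add no support for genes picked with this contrast known. The 4 genes that read higher on both LPA arrays also did so under quantile normalization and median centring. Without detection calls, signals near or below the filter may be background. Raising the pseudocount to 64 shrank such values: the differences of AMOTL1 225459_at, AMOTL1 228840_at and AJUBA 225807_at became -0.71, 0.28 and 0.37.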
